A study of Homo sapiens with 18 samples.

Results

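Gene expression in SH-SY5Y cells 3 h after exposure to sarin at 5 ppm was compared with that in untreated SH-SY5Y cells of the same time. The comparison rests on 6 of the 18 arrays of the study, chosen by their labels: 3 arrays of sarin cells and 3 of untreated control cells at 3 h. SH-SY5Y is an established line of human neuroblastoma cells that keep features of noradrenergic neurons. The other 12 arrays hold the same pair of conditions at 24 h and 48 h and were used for a common estimate of spread and for setting 3 h values beside later ones. The labels name 6 flasks for a group beside its 3 arrays and do not say which flasks went to which array, so a p-value here reflects only how far these arrays differed, and that variation may be technical. Values are signal intensity from Affymetrix arrays, in arbitrary units on a linear scale, where a probe set is a group of short probes that reads 1 transcript. For 11963 genes with a probe set of their own the brightest probe set was taken. The 7178 genes in the upper 60% by mean level were tested on log2(signal + 16), where ± is a standard error.

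Sarin, an organophosphorus nerve agent, inactivates acetylcholinesterase, so that released acetylcholine is no longer degraded. Acetylcholine acts through nicotinic receptors, which are ion channels, and through muscarinic receptors, which couple to G proteins. Both feed calcium, cyclic AMP and kinase cascades, and these act within minutes to hours on immediate early genes such as FOS, JUN and EGR1, whose products switch on later genes. Early readouts of an exposure are therefore usually sought among receptors, second messenger proteins, kinases and transcription factors.

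The control arrays were less alike than the sarin arrays, and this bears on every value below. Across the 7178 genes the sarin arrays correlated with each other at r = 0.964 to 0.977. Control replicate 1 correlated with control replicate 2 at 0.942 and with control replicate 3 at 0.928, but with the sarin arrays at 0.964 to 0.968. Controls 2 and 3 correlated with each other at 0.899, the lowest of the 15 pairs. Control replicate 1 was thus closer to every sarin array than to either of the other controls, as the plot of correlations between the arrays shows. The median SD of a gene within the group was 0.295 log2 units in the 3 h controls and 0.182 with sarin, against 0.155 to 0.278 in the groups of later times.

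**Figure D1:**
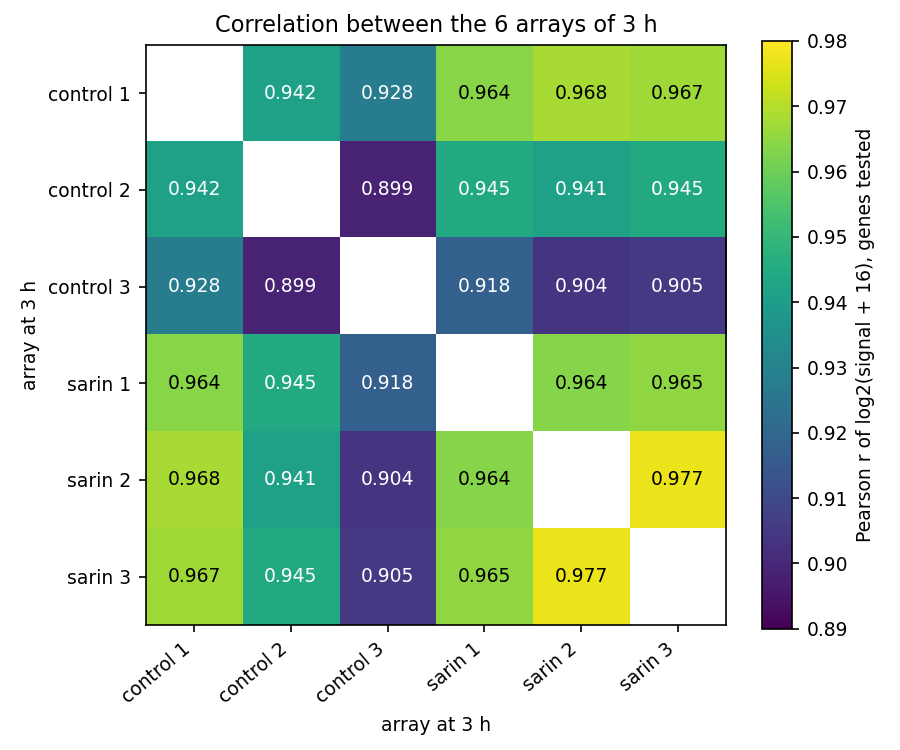
Pearson correlation of log2(signal + 16) over the 7178 genes tested between each pair of the 6 arrays of 3 h, with the value written in each cell and the colour scale from 0.89 to 0.98. The row of control 3 holds the lowest values, 0.899 to 0.928, and control 1 correlates more highly with the 3 sarin arrays (0.964 to 0.968) than with controls 2 and 3.

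Control replicate 3 stood apart in the shape of its signal distribution. Its brightest probe set had a signal of 162749, against 47402 to 61563 on the other 5 arrays of 3 h. The brightest 100 probe sets carried 27.9% of all its signal, against 13.2% to 15.6% on the others. Relative to the mean of controls 1 and 2, the median gene on control 3 was 0.16 log2 units higher in the dimmest of 10 equal classes of genes by level. It was 0.17 lower in class 7 and 0.24 higher in the brightest class, so its deviation depended on level. The deviation of sarin replicate 1 went from 0.29 in the dimmest class to -0.09 in the brightest, so it had the sign of control 3 at the dim end and the opposite sign at the bright end. Many differences are therefore also given without control replicate 3, and those given only with it may depend on it as well.

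**Figure D2:**
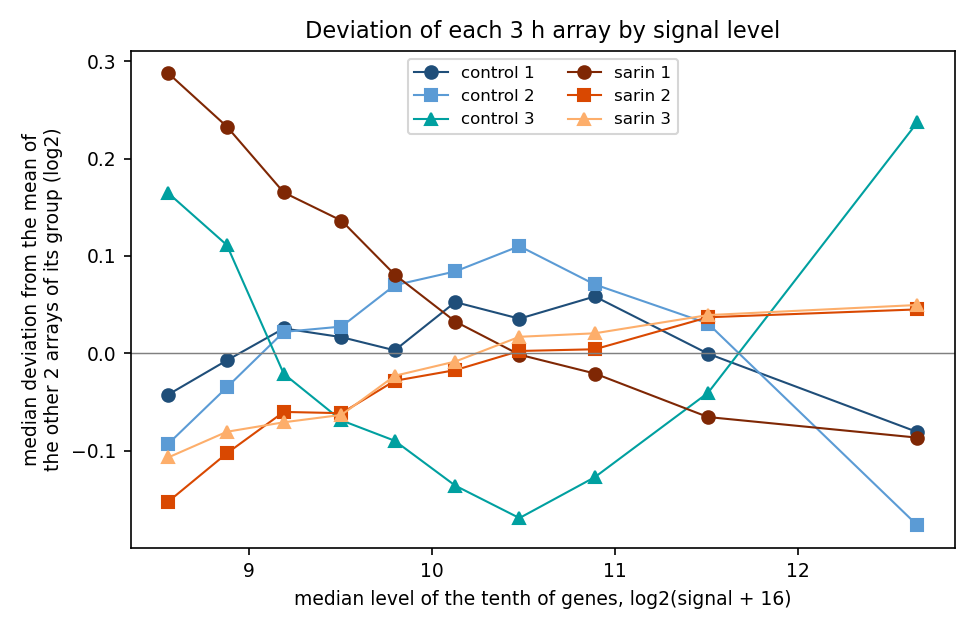
Median deviation of each 3 h array from the mean of the other 2 arrays of its group (log2 units, vertical axis) in 10 classes of the 7178 genes ordered by level (horizontal axis, log2 units). Control 3 (teal triangles) runs from 0.16 through -0.17 to 0.24, and sarin 1 (brown circles) falls steadily from 0.29 to -0.09.

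No gene passed limma's moderated test (lmFit and eBayes, Benjamini-Hochberg adjusted p under 0.05) at 3 h, where the smallest adjusted p was 0.246. At an unadjusted p under 0.05 there were 747 genes, 10.4% of those tested, of which 318 (4.43%) were higher and 429 (5.98%) lower with sarin. Without control replicate 3 the count was 431 (6%), and with quantile normalization it was 485. Limma with array weights, the fit without control replicate 1 and the fit without control replicates 2 and 3 called 2 genes each. A fit against the control arrays of 24 and 48 h, in which time and sarin cannot be told apart, called 1058, and the other fits that were run called 0. Among the 6 arrays of 3 h the weights were lowest for controls 2 and 3, 0.437 and 0.317, and highest for sarin 3, 2.01. Leaving the test aside, the 3 sarin arrays lay wholly above the 3 control arrays for 512 genes (7.13%) and wholly below for 499 (6.95%), together 1011 (14.1%). Against all 9 control arrays of the 3 times these numbers were 174 (2.42%) and 212 (2.95%).

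Genes among the 15 in each direction with the smallest p and no overlap between the groups are described first. Among the higher ones was CBFA2T2, a corepressor that recruits histone deacetylases. Its signal was 434, 68.9 and 115 in controls 1 to 3 and 521, 631 and 664 with sarin, a fitted difference of 1.85 ± 0.39 (limma, adjusted p = 0.246), or 1.66 without control replicate 3. Controls 2 and 3 were not above background, for which the 90th percentile of the signals of 27 bacterial probe sets with no spiked RNA was used (97.0 to 151 at 3 h), and control 1 was close to the sarin arrays. With controls 2 and 3 raised to background the difference was 1.59. Without control replicate 1 no control array was above background, and the gene, which then passed the test (limma, adjusted p = 0.00012), was at least 4.46-fold higher with sarin. The 6 control arrays of 24 and 48 h ranged from 553 to 796, around or above the 3 h sarin arrays, so the low values were those of 2 control arrays. Set against those 6 arrays, which differ in time, the 3 h sarin arrays were at -0.18. The other 2 CBFA2T2 probe sets gave 0.86 and 0.10.

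POM121C, a nuclear pore protein, had 2091, 2691 and 1744 in controls and 3436, 3884 and 3954 with sarin. The difference was 0.80 ± 0.17 (limma, adjusted p = 0.246), or 0.66 without control replicate 3. All 3 sarin arrays exceeded all 9 controls, whose highest value was 3022. MTA1, a subunit of the NuRD chromatin remodelling complex, had 1877, 2104 and 1465 against 2584, 2682 and 2899, a difference of 0.59 ± 0.13, or 0.45 without control replicate 3. It was the same 0.59 higher at 24 h, where it passed the test (limma, adjusted p = 0.0104). The highest of all 9 MTA1 controls was at 3018, above every 3 h sarin array. Genes of RNA processing stood in this group as well. SF1, a splicing factor that binds the branch point, had 3023, 3356 and 3194 against 4402, 4725 and 4681 (0.53 ± 0.12, and 0.53 without control replicate 3), while its other probe set was at -0.30. RBM22, a spliceosome component (0.76 ± 0.20), and SRRT, which links the cap-binding complex to RNA processing (0.59 ± 0.15), also lay above all 9 controls. CCNL2, a cyclin of splicing speckles, differed by 0.76 ± 0.20, but its highest control of the 9 was at 1569, above every 3 h sarin array. For SRRT all 5 probe sets had the same sign, the weakest, a dim one, only at 0.007 ± 0.24. Both RBM22 and SRRT passed the test at 24 h, at 1.03 and 0.72 (limma, adjusted p = 0.00318 and 0.00788).

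Among the lower genes RECK, a membrane-anchored inhibitor of matrix metalloproteinases, had the smallest p. Its signal was 2424, 2118 and 2916 in controls and 959.6, 1524 and 926 with sarin, a difference of -1.14 ± 0.22 (limma, adjusted p = 0.246). The 3 h sarin arrays were the lowest of the series, and the controls of 24 and 48 h lay at 4458 to 11203. The bright RECK probe set carries the array maker's mark for probes that can match other sequences, and 2 other probe sets of RECK were far dimmer, at -0.21 and -0.58. At 24 h the same probe set fell by 1.15 on the log2 scale (limma, adjusted p = 0.00389). TCEAL9, a small protein of the elongation factor A-like family, had 2898, 4945 and 4904 against 2533, 2131 and 1886 (-0.92 ± 0.20). Here the 2 high controls set the size of the difference, and the fit without control replicate 1 gave -1.18 (adjusted p = 0.0272).

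APP, the amyloid precursor protein, had 6117, 6691 and 9636 in controls and 4536, 4348 and 3742 with sarin. The difference was -0.80 ± 0.19, or -0.61 without control replicate 3, its highest array. Its 2 other probe sets had the same sign at -0.35 and -0.19. The lowest of all 9 APP controls was at 2540, below every 3 h sarin array. DYNC1H1, the heavy chain of cytoplasmic dynein, was at 2216, 3288 and 2718 against 1499, 1727 and 1809 (-0.69 ± 0.16), below all 9 controls. LPP, a focal adhesion protein (-0.92 ± 0.21), and CXCL12, a chemokine (-1.04 ± 0.26, or -0.70 without control replicate 3), were in this group too. A dimmer CXCL12 probe set was at -0.03 ± 0.64. Values on each array for several of these genes, and for others from the lists below, are shown in the plot of signals by gene.

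**Figure D3:**
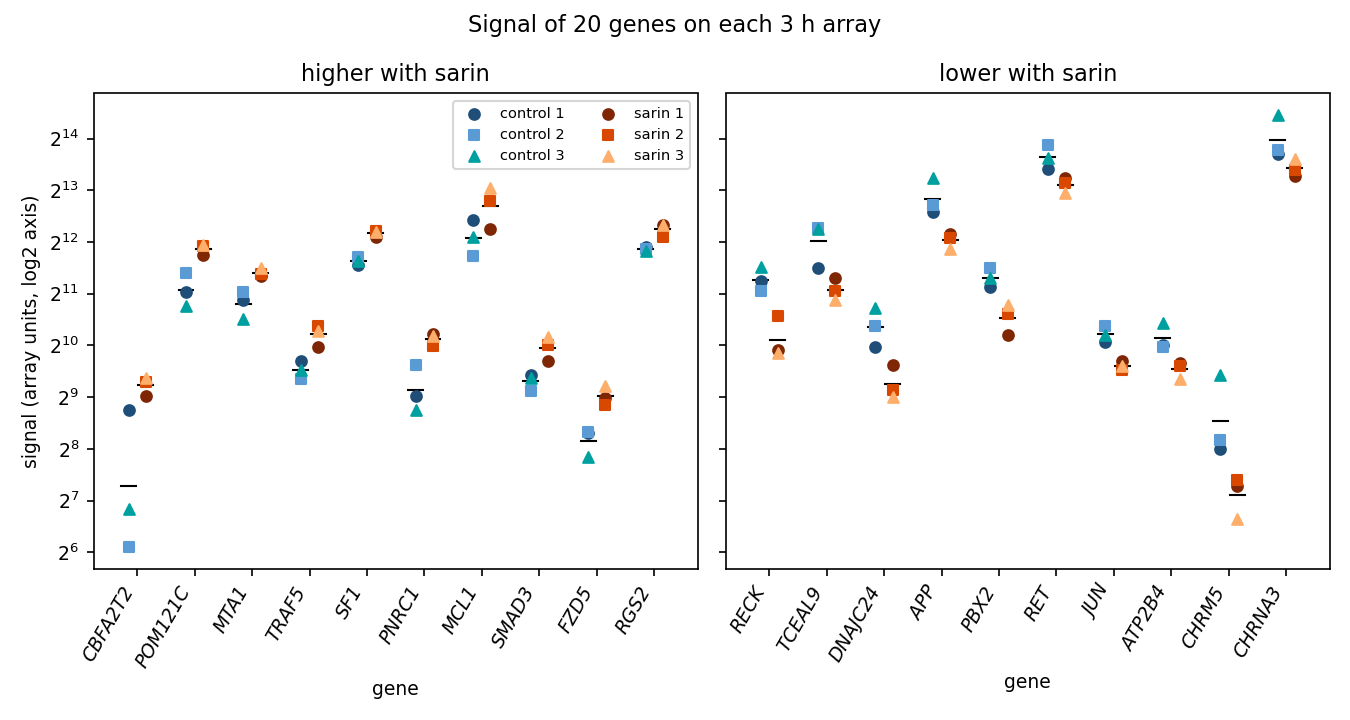
Signal (array units, log2 axis) of 10 genes higher and 10 genes lower with sarin on each of the 6 arrays of 3 h; blue and teal points are controls, brown and orange points sarin arrays, and black lines the group means on the log2(signal + 16) scale. For CBFA2T2 control 1, at 434, lies near the sarin arrays (521 to 664) while controls 2 and 3 are at 68.9 and 115.

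The gene lists used from here on cover receptors, signalling and transcription and hold 1180 genes with a probe set of their own on the array, of which 809 were tested. Counts of members are to be read beside the shares over all genes given above, and no list was tested as a set. Of 13 cholinergic genes tested, 1 was higher and 3 were lower at an unadjusted p under 0.05, and the median difference was -0.12 against -0.01 over all genes. CHRNA3, the alpha3 subunit of the ganglionic nicotinic receptor, was the brightest, at 13322, 13984 and 22424 in controls and 9981, 10695 and 12470.1 with sarin. That is -0.55 ± 0.18 with all arrays (limma, adjusted p = 0.339) and -0.31 without control replicate 3, and 1 of 3 CHRNA3 probe sets had the opposite sign. CHRNB4, the beta4 subunit that pairs with alpha3, was at 869.9, 363 and 388 in controls and 861, 828 and 820.1 with sarin. Its difference of 0.73 ± 0.31 came from controls 2 and 3, since control 1 was level with the sarin arrays.

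CHRNB2, the nicotinic beta2 subunit, went from 334, 348 and 930.5 to 184, 275 and 210.5, or -1.06 ± 0.34, and -0.59 without control replicate 3. CHRM5, a muscarinic receptor coupled to phospholipase C, was at 255, 289.7 and 692 in controls and 156, 169 and 100.1 with sarin (-1.33 ± 0.40, or -0.90 without control replicate 3). Its sarin arrays lay below all 9 controls. CHRNG, the fetal muscle gamma subunit, was below the level filter and is named because its difference was seen to be large. Its signal was 127, 162 and 407 in controls and 12.8, 38.3 and 15.8 with sarin. All 3 sarin arrays were not above background, and control 1 was not either. CHRNG was 1.65-fold lower with the sarin arrays raised to background and control 1 at its own signal, so this is no firm minimum. In a fit without the level filter the adjusted p of CHRNG in limma was 0.269.

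The brightest probe sets of the enzymes that sarin reaches overlapped between the groups. BCHE, butyrylcholinesterase, was at 1354, 1828 and 1342 in controls and 1408, 1343 and 1375 with sarin (-0.12 ± 0.18). ACHE, the acetylcholinesterase gene, had a low signal, 216, 105 and 247 against 47.8, 236 and 180.2. A still dimmer ACHE probe set had all sarin arrays above all controls, at 0.64. CHRM3, the main muscarinic receptor of these cells, was at 1004, 1184 and 812 against 980.2, 838 and 1066 (-0.05 ± 0.27).

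Of 22 other transmitter and peptide receptors tested, 1 passed an unadjusted p of 0.05, and 16 were not above background on any of the 6 arrays among the 88 with a probe set. It was OPRM1, the mu opioid receptor, at 405, 345 and 583 in controls and 219.5, 168 and 227 with sarin (-1.04 ± 0.30, or -0.83 without control replicate 3). Only 1 of its 3 probe sets had this sign. RET, the tyrosine kinase receptor for GDNF-family ligands, was the leading one of 19 receptor tyrosine kinases and neurotrophin receptors tested, of which 2 were lower. RET had 10847, 15086 and 12626 in controls and 9634, 9058 and 7928 with sarin, a difference of -0.53 ± 0.14 (limma, adjusted p = 0.279), unchanged at -0.53 without control replicate 3. Its sarin arrays were below all 9 controls, but 2 further probe sets of RET, also bright, were at 0.02 and 0.12. At 24 h the same probe set fell by 1.26 on the log2 scale (limma, adjusted p = 1.89e-05).

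Of 48 genes of the Notch, Wnt, Hedgehog and TGF-beta pathways tested, 3 were higher and 0 lower at an unadjusted p under 0.05, with a median of 0.04. SMAD3, which carries TGF-beta signals to the nucleus, was at 690.1, 558 and 663 in controls and 834, 1035 and 1141 with sarin (0.64 ± 0.19, or 0.67 without control replicate 3). FZD5, a Wnt receptor, was at 318, 323 and 229 against 508, 458 and 595 (0.82 ± 0.27, or 0.67 without it). Both lay above all 9 controls. NOTCH3, a receptor for Delta and Jagged ligands, was at 609.9, 757 and 526 against 862, 1147 and 971 (0.65 ± 0.25, or 0.53 without control replicate 3). Of its 2 probe sets 1 had this sign.

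Of 34 G proteins, RGS proteins and arrestins, 2 were higher and 2 lower. RGS2, which shortens signalling by Gq-coupled receptors such as muscarinic ones, was at 3846, 3707 and 3621 in controls and 5116, 4389 and 5136 with sarin. Its arrays were tight in both groups, and the difference of 0.39 ± 0.11 (limma, adjusted p = 0.304) was 0.36 without control replicate 3. GNAS, the stimulatory G protein alpha subunit, was at 34743, 36379 and 85973 against 30354, 31387 and 29418. Control 3 alone made most of that difference, which was -0.65 with it and -0.23 without. RGS12 was at 421, 494 and 64.6 against 608, 449 and 541, where 1.06 became 0.21 without that array, on which RGS12 was not above background.

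Of 36 genes of cyclic AMP, protein kinase A and CREB, 3 were higher and 0 lower. AKAP1, which anchors protein kinase A at mitochondria, was at 1765, 1887 and 1538 in controls and 2563, 2293 and 2478 with sarin (0.50 ± 0.14, or 0.42 without control replicate 3). All 4 of its probe sets had this sign, the weakest only at 0.002 ± 0.21. For the factor CREB1 the brightest of 4 probe sets was at 0.06 ± 0.20, while a dimmer one was at 0.86, with all sarin arrays above all controls and an unadjusted p of 0.00122 in limma over probe sets. Of 46 genes of phospholipase C, calcium and protein kinase C, 2 were higher and 2 lower. ATP2B4, a plasma membrane pump that exports calcium, was at 1034, 1003 and 1381 in controls and 805, 782 and 655 with sarin. Its -0.59 ± 0.15 (-0.44 without control replicate 3) lay below all 9 controls, and at 24 h it fell by 0.76 (limma, adjusted p = 0.00483). Of its 2 other probe sets, 1 was at -0.24 and 1 at 0.78. NCS1, a neuronal calcium sensor, was at 433, 223 and 185 against 759.6, 667 and 501, above all 9 controls but with a wide spread. Its difference was 1.22 ± 0.49, or 0.99 without control replicate 3.

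In the MAP kinase list small positive differences with little overlap were frequent. Of 58 members tested, 10 had all sarin arrays above all controls and 1 below, beside 7.13% and 6.95% over all genes, while 2 were higher and 2 lower at an unadjusted p under 0.05. MAP2K4, the kinase that activates JNK, was at 760.2, 721 and 677 in controls and 955, 992 and 976 with sarin (0.43 ± 0.22). MAP3K1, further up the same cascade, was at 404, 523 and 331 against 733, 598 and 578 (0.60 ± 0.29, or 0.45 without control replicate 3). MAPK7, or ERK5, was at 681, 556 and 525 against 1275, 912 and 932 (0.80 ± 0.42). The JNK gene MAPK8 differed by 0.16 ± 0.21. Among dual-specificity phosphatases, which switch MAP kinases off, DUSP10 was lower (-0.63 ± 0.21, or -0.45 without control replicate 3) with overlapping arrays. DUSP1 and DUSP6, which follow kinase activity closely in many cells, were at 0.18 ± 0.20 and 0.04 ± 0.27. The list's median difference was 0.06, and 0.08 without control replicate 3.

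Of 34 genes of NF-kappaB, TRAF and death receptor signalling, 4 were higher and 1 lower at an unadjusted p under 0.05, though the list's median was -0.09. TRAF5, an adaptor of TNF receptor family signalling, was at 828, 654 and 735 in controls and 1006, 1329 and 1250.1 with sarin (0.68 ± 0.15, and 0.68 without control replicate 3). Among all 9 controls its highest was at 1511, above every 3 h sarin array. TRAF6, an adaptor of interleukin 1 and Toll-like receptors, was at 269, 347 and 469 against 615, 605 and 534 (0.70 ± 0.31), above all 9 controls. TNFRSF21, or death receptor 6, was at 1523, 1315 and 1194 against 2379.9, 2068 and 2539 (0.79 ± 0.34). NFKBIA, the feedback inhibitor of NF-kappaB, was at -0.07 ± 0.23. In the list of 38 PI3 kinase, AKT and mTOR genes 1 was higher and 1 lower, with EIF4E, the cap-binding translation factor, at 3711, 4313 and 3942 against 3392, 2922 and 2719 (-0.41 ± 0.16, and -0.41 without control replicate 3).

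Immediate early genes differed in both directions. Of 36 tested in the list with AP-1, the factor built from FOS and JUN family proteins, 5 were higher and 1 lower at an unadjusted p under 0.05 (median 0.11). FOS and JUN themselves were both lower with sarin. FOS, below the level filter, had a signal of 244, 261 and 128 in controls and 55.4, 34.6 and 33.8 with sarin. The 6 controls of 24 and 48 h were at 21.4 to 71.7, and the sarin arrays of 3 h lay within that range. The high values were thus those of the 3 h controls. The sarin arrays were not above background, nor was control 3. With the sarin arrays raised to background and control 3 at its own signal, FOS was 1.63-fold lower with sarin at 3 h. Since control 3 could not be told from background, this is no firm minimum. The fitted difference was -1.95 ± 0.37 (adjusted p = 0.269 in limma without the level filter), and -2.25 without control replicate 3.

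JUN was at 1068, 1337 and 1176 in controls and 828, 741 and 782 with sarin. The difference was -0.59 ± 0.21 (limma, adjusted p = 0.349), and -0.60 without control replicate 3, and the sarin arrays were below all 9 controls, of which the lowest was 843. All 4 JUN probe sets had this sign, at -0.59, -1.18, -1.10 and -0.79. The probe sets at -1.18 and -1.10 were dim, with mean levels of 6.33 and 7.13 log2 units, under the level filter at 8.49. For the probe set at -0.79 the groups overlapped. The brightest carries the same mark for probes that can match other sequences as that of RECK. Other AP-1 members did not separate. JUNB was at 547, 1259.6 and 686 against 625, 508 and 484 (-0.53 ± 0.37), JUND at -0.22 ± 0.14, and ATF3, a stress-induced partner of JUN, at -0.15 ± 0.16. EGR1, a zinc finger immediate early gene, was at 549.7, 597 and 626 against 532, 423 and 668 (-0.14 ± 0.26). FOSB, FOSL1 and ARC were not above background on any of the 6 arrays.

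The bases before the start sites of FOS and JUN are shown because both genes are textbook targets of cyclic AMP and kinase signals through short elements there, and both were lower. They are the 120 bases before the start in RefSeq on GRCh38.p14, both genes matched by symbol, with the FOS window at chr14:75278708-75278827 on the plus strand and the JUN window at chr1:58784048-58784167 on the minus strand. Capitals mark matches, on either strand, to TGACGT, the core of the cyclic AMP response element, or to TGACNTCA, the form shared by that element and the AP-1-like site of JUN, in which N is any base. The first can lie within the second.
FOS: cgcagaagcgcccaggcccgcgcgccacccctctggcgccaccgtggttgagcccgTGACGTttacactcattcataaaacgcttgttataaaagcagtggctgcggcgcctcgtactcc
JUN: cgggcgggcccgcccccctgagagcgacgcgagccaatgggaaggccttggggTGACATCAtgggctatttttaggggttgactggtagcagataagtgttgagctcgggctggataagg
The FOS window holds TGACGT, its first base 64 bases before the start, and the JUN window holds TGACNTCA, its first base 67 bases before the start. Of 35116 windows of this length, 4.79% held the first motif and 4.82% the second. The matches describe the letters and were not set against binding data.

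Higher members of the list were genes of survival, growth arrest and growth. MCL1, an antiapoptotic BCL2 family protein with a short-lived mRNA, was at 5467, 3407 and 4383 in controls and 4879.7, 7124 and 8406 with sarin (0.61 ± 0.19, and 0.62 without control replicate 3). Its sarin replicate 1 overlapped the controls, 4 of 5 probe sets had this sign, and at 24 h MCL1 rose by 0.84 (limma, adjusted p = 0.0125). BTG1, an antiproliferative factor, was at 1972, 1669 and 1521 against 2464, 2192 and 2209 (0.41 ± 0.16, or 0.33 without control replicate 3). GADD45A, a DNA damage and stress gene, was at 288, 351 and 184 against 527, 436 and 748 (1.02 ± 0.41, or 0.78 without that array). MYC was at 1849, 1444 and 1334 against 2134, 2479 and 2012 (0.52 ± 0.23), above all 9 controls, and rose by 1.36 at 24 h (limma, adjusted p = 0.00141). SRF, the factor that drives many immediate early promoters with its ternary complex partners, was at 310.3, 309 and 294 against 388, 626 and 604 (0.76 ± 0.35).

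Most nuclear receptors and partners had small positive differences. Of 21 tested, 17 had a positive difference, against 3483 of 7178 over all genes, with a median of 0.15 and of 0.06 without control replicate 3. At an unadjusted p under 0.05 there were 1 higher and 1 lower. PNRC1, a coactivator of nuclear receptors, was at 523, 788 and 430.4 in controls and 1192, 1013 and 1156 with sarin (0.97 ± 0.28, or 0.78 without control replicate 3). RARB, a retinoic acid receptor, was at 440.0, 454 and 704 against 409, 314 and 322 (-0.57 ± 0.27, or -0.36 without it). All 5 of its probe sets had this sign, but 2 only barely, at -0.06 ± 0.45 and -0.07 ± 0.54. The glucocorticoid receptor NR3C1 was at 0.47 ± 0.24, from 0.21 to 0.71 when 1 array was left out, and of its 4 probe sets 2 were negative.

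Of 42 neuronal lineage transcription factors tested, 6 were lower and 1 higher at an unadjusted p under 0.05, with a median of -0.10 (-0.08 without control replicate 3, -0.05 with quantile normalization). PBX2, a homeodomain partner of HOX proteins, led with 2232, 2885 and 2523 in controls and 1173, 1555 and 1770.5 with sarin, or -0.77 ± 0.18 with and without control replicate 3. All 4 PBX2 probe sets had this sign, but the lowest of its 9 controls of all times was at 1128.5, below every 3 h sarin array. TCF12, an E protein that pairs with proneural factors, was at 3735, 3481 and 3270.4 against 3231, 2592 and 2357 (-0.37 ± 0.13). SOX4, a factor of neural progenitors, was at 10948, 10248 and 12894 against 8435, 9102 and 8892 (-0.36 ± 0.14, or -0.27 without control replicate 3), and 2 of 5 probe sets had this sign. INSM1, a neuroendocrine factor, was at 592, 679 and 829 against 583, 388 and 418 (-0.59 ± 0.25), and at 24 h it fell by 1.66 (limma, adjusted p = 0.000648).

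Of 102 corepressors and chromatin regulators, 5 were higher and 4 lower, close to the shares over all genes, and the median was 0.05, or -0.03 without control replicate 3. Beside CBFA2T2 and MTA1, TRIM28, the corepressor of zinc finger proteins, was higher (0.34 ± 0.15). ATRX, a chromatin remodeller, was lower with little spread, at 2324, 2531 and 2578 against 1984, 1992 and 2089 (-0.29 ± 0.12, below all 9 controls). Of 4 ATRX probe sets, 2 had the opposite sign, at 0.13 and 0.11. DNMT3B, a DNA methyltransferase, was also below all 9 controls (-0.45 ± 0.19). Of 73 genes of RNA polymerase II, its general factors and Mediator, 4 were higher and 2 lower. ELOA, the elongin A subunit of an elongation factor, was at 1883, 1859 and 1541 against 2392, 2491 and 2672 (0.52 ± 0.14, or 0.42 without control replicate 3). Other ELOA probe sets were nearly level between the groups, at 0.04 ± 0.16 and 0.08 ± 0.39. POLR2L, a small subunit shared by the polymerases, was at 5201, 2938 and 4136 against 6451, 5988 and 6484 (0.66 ± 0.20). TAF1, the largest subunit of TFIID, was at 131, 47 and 481 against 535, 562 and 394, and its 1.61 ± 0.52 rested on controls 1 and 2, which were not above background. With those 2 arrays raised to background the TAF1 difference was 1.23, and its other probe set was at -0.29.

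Stress genes went both ways. Of 52 heat shock and unfolded protein response genes, 4 were higher and 9 lower at an unadjusted p under 0.05, 25% together against 10.4% over all genes, with a median of -0.10 (-0.14 without control replicate 3). Chaperones of mitochondria were among the higher ones. HSPE1, the mitochondrial co-chaperonin, was at 4511, 3733 and 2808 in controls and 5407, 5911 and 4822 with sarin (0.57 ± 0.18, or 0.38 without control replicate 3), and at 24 h it rose by 1.20 (limma, adjusted p = 0.000459). HSPA9, the mitochondrial HSP70, was at 3545, 3387 and 3058 against 4301, 4374 and 4439 (0.39 ± 0.17). Several genes of the endoplasmic reticulum response were lower. DDIT3, the factor CHOP, was at 789.7, 751 and 818 against 649, 553 and 526 (-0.44 ± 0.19), below all 9 controls. MANF, a secreted protein of that response, was at 3684, 4277 and 5520.5 against 2687, 2966 and 3484 (-0.55 ± 0.21, or -0.39 without control replicate 3), and HYOU1 and XBP1 were at -0.35 ± 0.13 and -0.47 ± 0.21. The chaperone HSPA5 was at -0.22 ± 0.17. DNAJC24, a J-domain protein of diphthamide synthesis, was at 1004, 1334 and 1699 against 792, 565 and 514 (-1.08 ± 0.25, or -0.90 without control replicate 3).

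Cytosolic ribosomal protein genes, among the brightest on the array, differed mainly through control replicate 3. Of 52 tested, 18 were lower and 0 higher, with a median of -0.35, but the median was -0.07 without that array and -0.03 with quantile normalization. Measured from the average of the 9 control arrays, this list was at -0.11 and -0.40 on controls 1 and 2 and at 0.82 on control 3, and the sarin arrays, at -0.35 to -0.21, lay between controls 1 and 2. RPS18, a small subunit protein, was at 44643, 34438 and 139794 against 33443, 37346 and 36685, and its difference of -0.74 became -0.13 without control 3. RPS12 was at 31262, 30262 and 60529.9 against 25102, 25549 and 24647, below the controls also without that array (-0.29 against -0.62 with it). RPS4X, RPS7 and RPL30 too lay below the controls without it, at -0.29, -0.30 and -0.29. In all, 6 of the 52 were lower at an unadjusted p under 0.05 whichever 1 array of 3 h was left out, against 1.48% of all genes. The levels of all lists by array are in the plot of list levels.

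**Figure D4:**
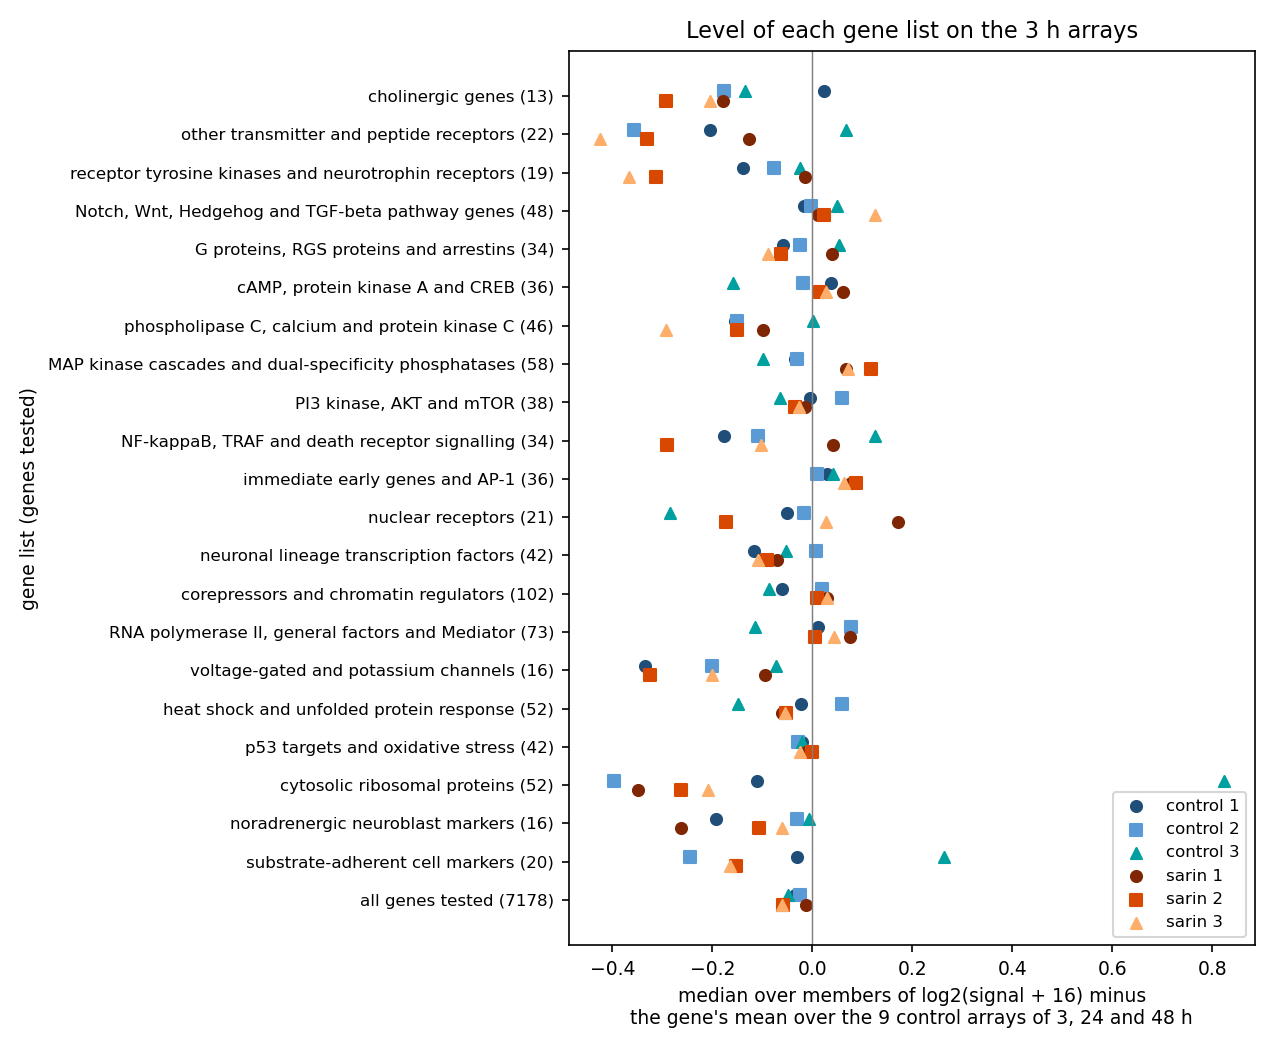
Median over the tested members of each gene list (number in brackets) of log2(signal + 16) minus the gene's mean over the 9 control arrays, for each 3 h array; blue and teal points are controls, brown and orange points sarin arrays. Control 3 lies at 0.82 for ribosomal proteins while the other arrays lie at -0.40 to -0.11. In the MAP kinase list and in the immediate early list all 3 sarin arrays lie above all 3 controls. In the cholinergic list they lie below them by a narrow margin, -0.178 against -0.177.

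Markers of noradrenergic cells were present at 3 h in both groups, with the exception of TH. PHOX2A, a determinant of noradrenergic neurons, had a signal of 10429, 9359 and 12547 in controls and 8822, 9539 and 9656 with sarin. DBH, which makes noradrenaline, was at 10462, 9192 and 12133 against 9718, 12285 and 11504. TH, the first enzyme of that pathway, was not above background on any of the 6 arrays. Of 16 noradrenergic markers tested 3 were lower at an unadjusted p under 0.05: RET, the vesicular transporter SLC18A1 (-0.35 ± 0.14) and CHGB, a granule protein at 3786, 3860.0 and 3482 against 3034, 2980.2 and 3112 (-0.28 ± 0.11). Of 20 markers of substrate-adherent cells tested, 1 was higher and 4 lower, and the list stood at -0.25 to 0.26 on the controls and -0.16 to -0.15 with sarin. VIM, the main intermediate filament of such cells, was at 28551, 22178 and 52122 against 29319, 27192 and 29019. Of 12 glial and Schwann cell markers on the array 2 were tested, CNP and ALDH1L1, and both were above background on all 6 arrays. CNP was at 707, 1264 and 950 against 1072, 872 and 891 (-0.01 ± 0.31). ALDH1L1 was at 250.5, 253 and 391 against 342, 325.5 and 326 (0.17 ± 0.33). The glial markers S100B and SOX10 were not above background on any of the 6 arrays. GFAP, below the level filter, was at 176, 26.5 and 67.1 against 257, 308 and 161, where controls 2 and 3 were not above background. MOG, a myelin gene, went the other way, with a mean of 7.89 log2 units in controls and 6.82 with sarin. All 3 control arrays of MOG were above background and no sarin array was, so it was at least 1.77-fold lower with sarin. The part of these cell types in the differences above was not tested, and in bulk RNA fewer cells of a type and less RNA per cell cannot be told apart.

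To see which genes did not depend on a single array, the genes with an unadjusted p under 0.05 in the fit with all arrays and in each of the 6 fits without 1 array of 3 h were counted. They were 60 higher (0.836%) and 106 lower (1.48%), a set defined after the values were seen. Among the genes described above it holds CBFA2T2, POM121C, MTA1, TRAF5, SF1, RBM22, SRRT, CCNL2, SMAD3, FZD5, RGS2, AKAP1, PNRC1, MCL1, ELOA, POLR2L and HSPE1 on the higher side. On the lower side it holds RECK, TCEAL9, APP, DYNC1H1, LPP, CXCL12, PBX2, RET, JUN, ATP2B4, CHRM5, OPRM1, DNAJC24, CHGB, RPS12, RPS4X, RPS7 and RPL30. It does not hold CHRNA3, CHRNB2, GNAS or MAP3K1. Where a gene had 2 probe sets above the level filter, the dimmer had the sign of the brighter for 1172 of 2031 genes (57.7%) over all genes and for 29 of 40 (72.5%) in this set. At least 1 other probe set, bright or dim, had the opposite sign for LPP, SMAD3, FZD5, GNAS, RGS12, MAP2K4, EIF4E, JUND, EGR1, DUSP6, TCF12 and POLR2L, beside the genes for which this is stated above. Later controls also bear on some genes above. For PNRC1, NOTCH3, GADD45A and TAF1 the highest of the 9 controls lay above every 3 h sarin array. For EIF4E, SOX4 and HYOU1 the lowest of the 9 lay below every 3 h sarin array.

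The 24 h comparison uses other arrays, though it shares the estimate of spread. Of the 60 higher genes 13 (21.7%) were higher at 24 h past the test and 2 (3.33%) lower, against 4.11% and 4.56% of all genes. Of the 106 lower genes 18 (17%) fell at 24 h and 4 (3.77%) rose. The sign at 24 h was the same for 39 (65%) and 79 (74.5%), against 59.9% over all genes. That last share pools genes of both signs, and the median 24 h difference over all genes was -0.07. It is thus no like background for a set of 1 sign. Some of the genes had opposite signs at the 2 times, though none had passed the test at 3 h. ZNF652, a zinc finger repressor, was at -0.88 ± 0.22 at 3 h and rose by 0.79 at 24 h, and the difference between the times, 1.67, passed the test (limma, adjusted p = 0.015). DYNC1H1 was at -0.69 and 0.61, with a difference of 1.30 (adjusted p = 0.00687), and TRAF5 at 0.68 and -0.55, with a difference of -1.23 (adjusted p = 0.00948). For RGS2 the values were 0.39 and -0.42, and the difference of -0.80 passed as well (adjusted p = 0.0203). Over all times the 9 controls ranged from 322 to 832 for ZNF652 and from 654 to 1511 for TRAF5, ranges that held the 3 h sarin arrays. For RGS2 they reached 4561, above sarin replicate 2 of 3 h at 4389, while DYNC1H1 lay below all 9 controls. The part of control levels in these differences was not tested. In all 60 genes of the 7178 passed the test of the difference between 24 h and 3 h.

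**Figure D5:**
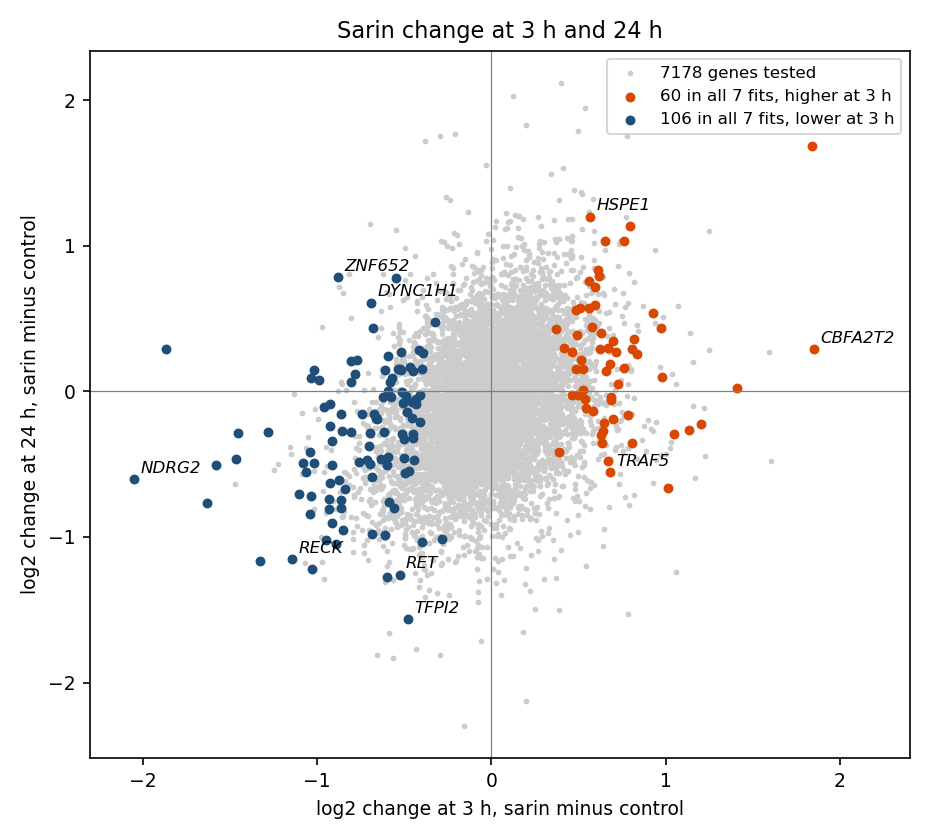
Log2 difference between sarin and control at 24 h (vertical axis) against that at 3 h (horizontal axis) for the 7178 genes tested; coloured points are the 60 higher and 106 lower genes with an unadjusted p under 0.05 at 3 h in all 7 fits. Of the coloured points 39 higher and 79 lower genes keep their sign at 24 h, and ZNF652, DYNC1H1 and TRAF5 lie in the quadrants of opposite sign.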

How the data were processed

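RNA of SH-SY5Y cells was labelled and hybridised to Affymetrix arrays. Signal intensity was deposited per array on a linear scale, from MAS5 per the submitters' processing notes. The version, any scaling target and any filter: not given in the sources used here. With 2% of probe sets trimmed from each end, every array had a mean of 800, so an array with another shape of distribution is shifted in part of its range. Of 22283 probe sets, 68 are controls, 19065 have 1 gene in the platform annotation, 1043 several and 2107 none. Those with several or none were not used.

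The level filter (upper 60% by mean log2(signal + 16)) lay at a signal of 345. Fold changes on this scale understate those of dim genes. A model with 1 mean for each of the 6 groups was fitted over the 18 arrays in limma 3.58.1 (R 4.3.3), with a mean-variance trend in eBayes, two-sided tests and Benjamini-Hochberg adjustment over 7178 genes. It was tested on simulated data. For genes under the filter the adjusted p is that of the fit over 11963 genes. A gene not above background in a group has a bound: the other group's mean log2 value against the mean of, per array, the higher of background and its own signal. An array of the other group that is not above background enters at its own signal, and the bound is then no firm minimum.

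The members and the 22 gene lists were chosen with earlier results of these data known. Names were drawn from the 15 genes in each direction with the smallest p and no overlap, up to 4 members of a list, a fixed set of genes, genes called in alternatives and those where control 3 was farthest off. Not all of these are named. Other genes were named after their values were seen. Promoter bases are from RefSeq. Alternatives changed the pseudocount, the filter, the scaling, the probe set taken, limma's options and the arrays included, and added a replicate block. Omission of controls 2 and 3 together and the use of later controls were added after seeing the data.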

Additional observations from a re-analysis of the deposited data

Results flagged for a closer look

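For 11 named genes the sarin effect differed between 24 h and 3 h by limma's test of the difference itself, all with an adjusted p under 0.05, and values are the log2 difference at 24 h minus that at 3 h. Genes lower at 3 h and higher at 24 h were DYNC1H1 (1.30), ZNF652 (1.67), SNRPB2, a U2 snRNP protein (1.33), TIMM8B, a mitochondrial import chaperone (0.80), and TCF12 (0.86). Genes higher at 3 h and lower at 24 h were TRAF5 (-1.23), RGS2 (-0.80), POM121C (-1.16) and NOTCH3 (-1.60). Genes lower at both times but more so at 24 h were TFPI2, a Kunitz-type protease inhibitor (-1.09), and CHGB (-0.73).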

How the results depend on the processing

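The count of 0 genes past the threshold at 3 h was kept under other pseudocounts, level filters, scalings and probe set summaries, and became 2 with array weights (POM121C and SNHG32). Leaving out 1 array gave 0 to 2 genes, the 2 being CBFA2T2, then not above background on either control array, and TCEAL9, without control replicate 1. Leaving out control replicates 2 and 3 together, chosen after seeing the data, gave 2 (CA14 and SNHG32), 267 genes at an unadjusted p under 0.05 and 3673 without overlap, the last because only 1 control array then remains. Against the 6 control arrays of 24 and 48 h, also chosen after seeing the data, 1058 genes were called, 2193 had an unadjusted p under 0.05 and 1553 did not overlap, and time and sarin cannot be told apart there. The 747 genes at an unadjusted p under 0.05 became 485 with quantile normalization and 1723 over all 19065 probe sets with 1 gene. They ranged from 431 (without control replicate 3) to 1094 (without control replicate 1) when 1 array was left out, with 489 and 479 without sarin replicates 2 and 3. The split of 318 higher and 429 lower became 415 and 314 with median centring. The 1011 genes without overlap became 2461 over probe sets and 1395 to 2142 without 1 array, where fewer arrays can overlap. Same-numbered arrays had no positive correlation of their deviations, at -0.18, -0.02 and -0.09. This cannot show whether they were handled as pairs. With a replicate block 0 genes were called and 621 had an unadjusted p under 0.05. For the 30 genes with the smallest p, 5 of 654 values under alternatives changed sign, and for all 148 named genes 108 of 3147. Of 462 list medians, 41 changed sign. Detection calls were not used here, so dim genes have only bounds set by background, and 3 arrays a group limit the precision.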

Other observations

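Outside the gene lists, several genes had wide gaps between the groups at 3 h and are named because of their values. NDRG2, a stress-responsive gene of the NDRG family, was at 1113, 857 and 666 in controls and 248, 171 and 176 with sarin, a difference of -2.05 ± 0.59, below all 9 controls, though its 2 other probe sets gave -0.49 and -0.23. ATXN2, an RNA-binding protein, was at 691, 496 and 436 against 105, 196 and 116 (-1.86 ± 0.66), where sarin 1 was not above background. ZBTB40, a zinc finger protein, was at 345, 60 and 556 against 747, 805 and 1136 (1.84 ± 0.54), above all 9 controls, but control 2 was not above background, and its second probe set gave 0.03. The proteasome subunits PSMD3 (0.62 ± 0.19) and PSMD6 (0.56 ± 0.16) both lay above all 9 controls, and PSMD6 was 0.57 higher at 24 h (limma, adjusted p = 0.0297). AHNAK, a large scaffold protein, was at 2778, 3759.6 and 2912 against 2363, 2112 and 1735 (-0.60 ± 0.17, with a dim second probe set at 0.09) and fell by 1.28 at 24 h (limma, adjusted p = 0.00019).

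Control replicate 3 was also far from controls 1 and 2 at single genes. REEP2, a membrane-shaping protein, was at 273 and 154 on controls 1 and 2 and at 1008 on control 3. ATOX1, a copper chaperone, was at 1359 and 1721 on controls 1 and 2 and at 189 on control 3, and its sarin difference was 1.14 with that array and 0.17 without it.

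The control levels of 2 genes higher with sarin at 3 h differed between the times. TNFRSF21 was at 1194 to 1523 in the 3 h controls, at 86.2 to 211 in the 24 h controls and at 536 to 840 in the 48 h controls. MYC was at 1334 to 1849, 452 to 646 and 1030 to 1186 in the same 3 groups.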
